A study of Drosophila melanogaster and Drosophila yakuba and Drosophila virilis with 31 samples.

Results

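The comparison set 5 embryos of Drosophila pseudoobscura (pse) against 5 embryos of Drosophila virilis (vir), 10 of the 31 libraries of the series. Its members are the embryos of both species that the study kept: pse females 1 and 2 and pse males 1 to 3, and vir females 1 to 3 and vir males 2 and 3. Pse female 3 and vir male 1 had been set aside by the study for low quality and do not enter. Each library came from 1 whole embryo of a wild-type strain, MV2-25 for pse and V46 for vir, with no treatment or mutation in either. Eggs had been laid by mothers 3 to 5 days old at room temperature, and embryos were picked by their shape under the microscope, after the blastoderm had formed cells and before gastrulation, and sexed by PCR on the Y chromosome. Embryos came from many mothers, so that they are probably separate offspring, but each species was represented by 1 strain. The series also held embryos of D. melanogaster (mel) and D. yakuba (yak), and unfertilized eggs, of which 1 was of pse and 2 were of vir. Values are FPKM, fragments per length of transcript and per number of mapped fragments, scaled by the authors to the 75th percentile of autosomal genes. Of 5993 genes with 1 ortholog in each species, 5419 had a mean above 1 FPKM in at least 1 of the 4 groups of species and sex and were tested.

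At this stage the embryo holds RNA from 2 sources. The mother loads the egg with RNA that runs the first divisions, and the embryo's own genome then takes over while maternal RNA is degraded. The segmentation genes, the genes that divide the embryo from back to belly, and the genes that build cells around the nuclei are transcribed by the embryo in this period, whereas most RNA for ribosomes, chromosomes and metabolism was laid down in the ovary. The 2 species belong to different subgenera, and their genes were measured on separate annotations. A difference in how complete a transcript model is cannot be told apart from a difference in RNA where only 1 value per gene is given.

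The embryos carried blastoderm RNA in both species. The summed level of 10 late blastoderm genes, among them eve, ftz, sna and twi, was 686 to 879.6 FPKM in pse embryos and 538 to 657 FPKM in vir embryos, and none of the 10 was at 0 in either species. Most of the listed markers of eggshell and fat body were absent from the table, and those present were low. The 2 eggshell genes in the table, Cp18 and Fcp3C, summed to 3.69 to 6.21 FPKM in pse embryos and 1.075 to 2.94 FPKM in vir embryos, and the yolk protein gene Yp3 was at 0.430 to 0.931 FPKM in pse embryos and 1.42 to 6.66 FPKM in vir embryos. Depth is unknown, since the tables hold no counts. Each library had 4728 to 4766 genes above 1 FPKM in pse embryos and 4889 to 4959 in vir embryos, and 7.01 to 7.86% of all genes of the table stood at 0 in pse embryos, against 5.24 to 5.51% in vir embryos.

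The 2 species differed at most genes, far beyond the spread among embryos. Across genes, Spearman's correlation between a pse and a vir embryo was 0.720 to 0.747, with a median of 0.732, while 2 embryos of 1 species correlated at 0.974 to 0.990. In the limma fit with sex as covariate, 2183 genes (40.3% of those tested) were called higher in pse embryos and 2331 (43.0%) higher in vir embryos, at an adjusted p under 0.05. The call with a difference of at least 2-fold held for 1196 genes (22.1%) higher in pse and 1401 genes (25.9%) higher in vir. All 5 pse embryos lay above all 5 vir embryos for 1852 genes (34.2%), and all 5 vir embryos above all 5 pse embryos for 2016 (37.2%), 71.4% in either direction. The median absolute difference over all genes was 0.96 on the log2(FPKM + 1) scale, 1.94-fold, against a median standard error of 0.13. Differences past 16-fold were rarer, with 60 genes higher in pse and 79 higher in vir. The pseudocount of 1 FPKM shrinks the difference of genes near 0, so that for such genes the levels say more than the log2 difference. The median difference over all genes was -0.05 and moved by 0.16 with median normalization, so that differences of that order depend on the scaling. With 83.3% of genes called in either direction, a call by itself sets no gene apart, and the genes below are described by how much they differed.

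**Figure D1:**
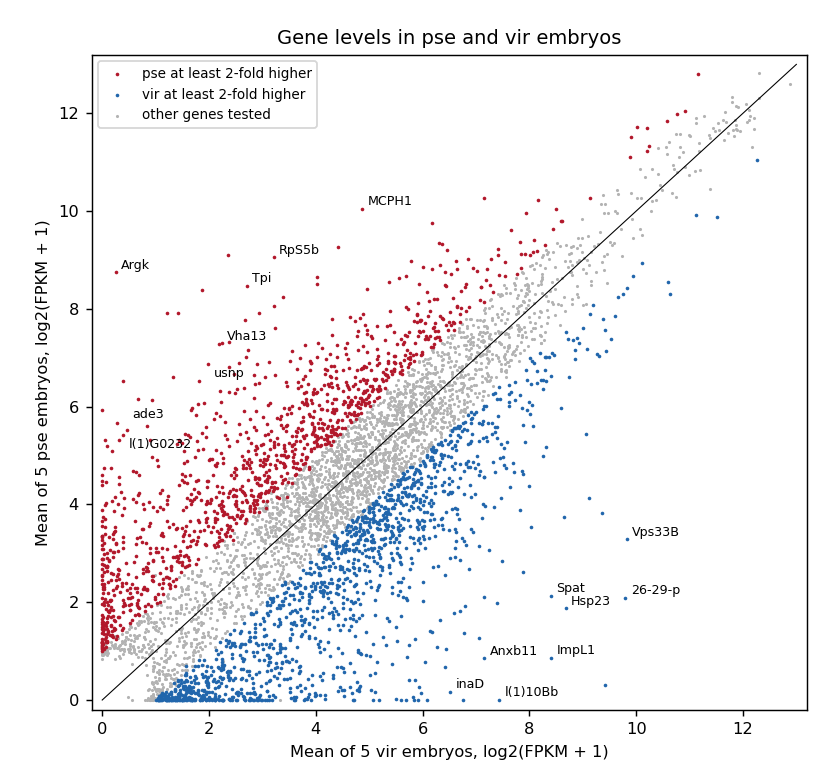
Mean level of each of the 5419 genes tested in 5 pse embryos (vertical axis) and 5 vir embryos (horizontal axis), both as log2(FPKM + 1), with the line of equal levels. Red points are the 1196 genes called at least 2-fold higher in pse and blue points the 1401 called at least 2-fold higher in vir; the 16 labelled genes are those with a symbol and the largest separated differences.

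Among the genes higher in pse, the largest difference was at Argk, which encodes arginine kinase, the enzyme that buffers ATP in arthropod cells. Argk (3L, 9041961 to 9059127 in mel release 5 coordinates) stood at 458, 416, 427, 452 and 394 FPKM in pse embryos, females first, against 0.140, 0.202, 0.322, 0.149 and 0.138 FPKM in vir embryos. Its log2 difference was 8.51 ± 0.088 (SE, adjusted p = 1.95e-14). The pse egg already held 105 FPKM and the vir eggs 0.157 and 0.122 FPKM, while the embryo means of mel and yak were 14.5 and 5.04 FPKM. Every pse embryo had a high level and every vir embryo a level near 0.

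Tpi, the glycolytic enzyme triosephosphate isomerase (3R, 25958697 to 25960321), showed 400, 336, 406, 317 and 312 FPKM in pse embryos and 6.25, 5.45, 7.24, 3.98 and 4.75 FPKM in vir embryos (log2 difference 5.83 ± 0.12). Its eggs did not share the difference: 121 FPKM were measured in the pse egg and 105 and 146 FPKM in vir eggs. RpS5b, a copy of the gene of ribosomal protein S5 (3R, 10726153 to 10727310), stood at 559, 420, 499, 770 and 406 FPKM in pse embryos, against 6.39, 9.39, 5.94, 10.6 and 8.86 FPKM in vir embryos. Its sister copy RpS5a ran the other way, at 942 ± 89.7 FPKM in pse embryos and 2924 ± 184 FPKM in vir embryos (mean ± SD, n = 5 each). Reads that fit both copies were divided between them in the authors' estimation, so the level of each copy is less certain than that of a single gene.

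MCPH1, the microcephalin gene that mel embryos need for their rapid nuclear divisions, was the most abundant of these genes. It stood at 1115, 1017, 1019, 1181 and 967 FPKM in pse embryos and at 26.8, 28.6, 31.2, 23.5 and 30.9 FPKM in vir embryos (2R, 7783498 to 7791429; log2 difference 5.20 ± 0.094). The vir level was close to the embryo means of mel and yak, 17.4 and 17.5 FPKM, and the pse egg stood at 340 FPKM. Vha13, a subunit of the proton pump of acidic organelles, was at 149, 164, 167, 144 and 156 FPKM in pse embryos and at 3.27, 3.61, 3.97, 4.30 and 3.40 FPKM in vir embryos. The groups were equally far apart at ade3, a gene of purine synthesis, with 38.4 to 49.8 FPKM in pse embryos and 0.147 to 0.553 FPKM in vir embryos.

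The last pair of this set were a phosphatase and a membrane fusion gene whose eggs were within 2-fold. l(1)G0232, now called Ptpmeg2, encodes a protein tyrosine phosphatase and ranged from 34.1 to 49.9 FPKM in pse embryos and from 0.181 to 0.476 FPKM in vir embryos, while its eggs stood at 56.9 FPKM in pse and 38.5 and 38.0 FPKM in vir. The SNARE gene usnp, now Snap29, ranged from 110 to 127 FPKM in pse embryos and from 2.01 to 3.81 FPKM in vir embryos with eggs at 38.4 FPKM in pse and 46.7 and 44.4 FPKM in vir. The 3 largest differences toward pse at genes known only by a CG number exceeded all of these but Argk. CG15916 averaged 242 ± 46.0 FPKM in pse embryos and 1.32 ± 0.506 FPKM in vir embryos, CG15098 averaged 550 ± 64.3 FPKM in pse and 4.10 ± 1.30 FPKM in vir, and CG32625 averaged 335 ± 111 FPKM in pse and 2.65 ± 0.935 FPKM in vir.

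Toward vir, 26-29-p, a cysteine protease gene of the cathepsin family, led the genes with a symbol. It stood at 3.22, 3.87, 2.87, 3.79 and 2.61 FPKM in pse embryos, against 1011, 765, 908, 879 and 885 FPKM in vir embryos (3L, 13987334 to 13989678; log2 difference -7.69 ± 0.11, adjusted p = 2.19e-13). The pse egg held 295 FPKM and the vir eggs 765 and 690 FPKM. ImpL1, first known as a target of the steroid ecdysone in imaginal discs, was listed at 0 in eggs of both species and stood at 0.147, 0.407, 1.17, 1.71 and 0.671 FPKM in pse embryos and at 352, 324, 391, 254 and 377 FPKM in vir embryos. Its mel and yak embryo means were 1.30 and 6.99 FPKM, so that the high level was seen in vir and in none of the other 3 species.

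Hsp23, a small heat shock protein, stood at 1.95, 2.61, 3.95, 2.67 and 2.21 FPKM in pse embryos and at 530, 378, 268, 371 and 499 FPKM in vir embryos (3L, 9374983 to 9375867; log2 difference -6.83 ± 0.19). The pse egg held 2.09 FPKM and the vir eggs 266 and 269 FPKM. Vps33B, which acts in the fusion of vesicles with endosomes, stood at 9.52, 7.03, 11.7, 8.78 and 6.82 FPKM in pse embryos and at 966, 969, 804, 981 and 803 FPKM in vir embryos. Its mel and yak means, 7.63 and 7.39 FPKM, were as low as in pse.

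The remaining genes of this set came from eye, membrane and metabolic functions. inaD, the scaffold of the light response in photoreceptors, was at 0.0316 to 0.205 FPKM in pse embryos and at 65.4 to 115 FPKM in vir embryos, where the eggs also held it at 45.3 and 34.9 FPKM. The annexin gene Anxb11 ranged from 0.352 to 1.51 FPKM in pse embryos and from 112 to 176 FPKM in vir embryos. Spat, an aminotransferase of glyoxylate and serine metabolism, ranged from 2.79 to 3.97 FPKM in pse embryos and from 324 to 357 FPKM in vir embryos. By the rule that chose them, none of these had overlapping groups. CG12947, known only by its number, had the largest difference of all genes, at 0.424, 0.203, 0.220, 0.171 and 0.142 FPKM in pse embryos and 687, 739, 570, 813 and 588 FPKM in vir embryos (log2 difference -9.09 ± 0.12).

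Several of these genes were listed at 0 in one species, which can also be a failed estimate. l(1)10Bb, the fly copy of the splicing factor gene BUD31, was listed at 0 in all 5 pse embryos and at 201, 183, 180, 170 and 124 FPKM in vir embryos, with 279 and 251 FPKM in mel and yak. The gene model spans 263 bp in pse and 646 bp in vir. The cause of the 0 values was not tested, and no fold is given. CG8790, the mitochondrial dicarboxylate carrier Dic1, and CG3270 were likewise listed at 0 in every pse embryo. They averaged 107 ± 18.1 and 66.4 ± 7.15 FPKM in vir embryos. The pse egg held 29.5 FPKM of CG8790, against 108 and 94.7 FPKM in vir eggs, but was listed at 0 for l(1)10Bb and CG3270. In all, 14 genes were listed at 0 in every pse embryo with a vir mean above 10 FPKM, and 5 genes were listed at 0 in every vir embryo with a pse mean above 10 FPKM.

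**Figure D2:**
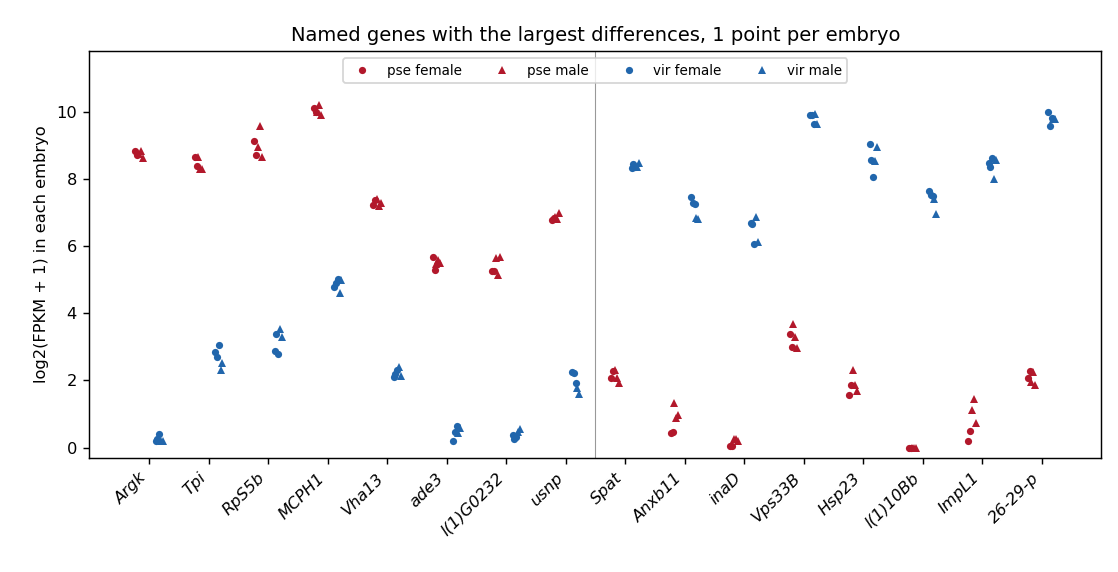
Level of the 16 named genes with the largest separated differences, as log2(FPKM + 1) on the vertical axis, 1 point per embryo, circles for females and triangles for males, pse in red at the left of each pair and vir in blue at the right. Argk lies at 394 to 458 FPKM in the 5 pse embryos and 0.138 to 0.322 FPKM in the 5 vir embryos, and 26-29-p lies at 2.61 to 3.87 FPKM in pse embryos and at 765 to 1011 FPKM in vir embryos.

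Genes with at least 10 FPKM in both species were well above 0 on both annotations. Of 2882 such genes, 490 were called at least 2-fold higher in pse and 458 at least 2-fold higher in vir. Over all 5419 genes tested these calls held for 1196 (22.1%) and 1401 (25.9%), so they were rarer among the 2882. Beside MCPH1, the largest differences toward pse were at desat1, the desaturase that puts the first double bond into fatty acids, at 614 ± 32.9 FPKM in pse embryos and 20.3 ± 1.91 FPKM in vir embryos, and at l(3)neo38, a zinc finger gene, at 363 ± 17.4 FPKM in pse and 15.2 ± 1.96 FPKM in vir. CG18809 averaged 401 ± 14.7 FPKM in pse and 15.2 ± 4.75 FPKM in vir, on gene models of 5603 bp in pse and 1288 bp in vir. Toward vir, CG5508, the glycerol phosphate acyltransferase gene mino, averaged 13.24 ± 1.82 FPKM in pse embryos and 656 ± 22.9 FPKM in vir embryos. CG9849 averaged 16.4 ± 3.29 FPKM in pse and 555 ± 49.5 FPKM in vir, CG8372 12.4 ± 2.49 FPKM in pse and 399 ± 37.3 FPKM in vir, and CG4612 10.7 FPKM in pse and 261 FPKM in vir. These last 3 had gene models over 2-fold longer in vir.

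Segmentation genes differed little beside these. Of 9 pair-rule genes, which are read in stripes along the embryo, 7 were called higher in pse and 1 higher in vir. Over all genes the shares were 40.3% and 43.0%. The median log2 difference of the 9 was 0.51 against -0.05 over all genes, and none reached 2-fold. ftz led with 262, 209, 228, 239 and 170 FPKM in pse embryos and 109, 142, 110, 101 and 120 FPKM in vir embryos, a log2 difference of 0.94 ± 0.12. prd averaged 104 FPKM in pse and 68.0 FPKM in vir, eve 68.3 FPKM in pse and 47.8 FPKM in vir, and odd 94.6 FPKM in pse and 66.6 FPKM in vir. The exception was h (hairy), at 43.6 FPKM in pse and 64.0 FPKM in vir, with overlapping groups and no call in females alone, and run was not called.

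Gap genes, which mark broad regions of the embryo before the stripes form, moved in both directions. In all, 4 of 8 were called higher in pse and 2 higher in vir, against 40.3% and 43.0% of all genes. Kr, active in the middle of the embryo, stood at 118 to 159 FPKM in pse embryos and 47.7 to 64.8 FPKM in vir embryos (log2 difference 1.22 ± 0.10), and ems, a head gene, was higher in pse by 0.68. kni, which acts behind Kr, stood at 18.7, 15.6, 14.5, 13.6 and 12.3 FPKM in pse embryos, against 58.9, 71.9, 55.2, 63.8 and 67.1 FPKM in vir embryos (adjusted p = 1.035e-08 in limma). tll, a gene of both ends of the embryo, ranged from 6.20 to 9.22 FPKM in pse and from 13.96 to 29.2 FPKM in vir. The mel and yak means of kni, 50.9 and 46.6 FPKM, were nearer to vir than to pse.

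Of 16 segment polarity genes, 7 were called higher in pse and 4 higher in vir, against 40.3% and 43.0% of all genes. Su(fu), an inhibitor of hedgehog signalling, averaged 31.2 FPKM in pse and 8.602 FPKM in vir, and gsb, a transcription factor that appears late in the blastoderm, 10.6 FPKM in pse and 3.19 FPKM in vir. In the other direction cos, another hedgehog pathway gene, averaged 31.2 FPKM in pse and 66.6 FPKM in vir, and the Wnt receptor fz 8.24 FPKM in pse and 18.7 FPKM in vir, though fz was not called in females alone. Among 5 homeotic genes and cofactors, Antp, the selector of the thorax, stood at 13.3 to 20.1 FPKM in pse embryos and 2.53 to 4.58 FPKM in vir embryos, and the cofactor hth averaged 189 FPKM in pse and 95.5 FPKM in vir. abd-A, a selector of the abdomen, averaged 1.05 FPKM in pse and 7.07 FPKM in vir.

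Genes of the dorsal side showed some of the largest differences among the patterning genes. Ance, which encodes a peptidase made in the presumptive amnioserosa, stood at 199, 228, 87.5, 93.3 and 150 FPKM in pse embryos and at 10.9, 9.23, 11.9, 14.3 and 18.3 FPKM in vir embryos (log2 difference 3.43 ± 0.27, adjusted p = 1.65e-07). The T-box gene Doc2 stood at 19.9 to 33.4 FPKM in pse embryos and 0.655 to 7.89 FPKM in vir embryos, on gene models of 5671 bp in pse and 24474 bp in vir. tsg, which shapes the gradient of the BMP signal, stood at 116 to 154 FPKM in pse and 26.8 to 44.0 FPKM in vir. The BMP ligand genes did not share the difference. dpp was not called, at 9.96 FPKM in pse and 12.2 FPKM in vir, and scw stood lower in pse at 1.32 to 3.48 FPKM, against 13.6 to 15.4 FPKM in vir. Med, the common partner of the signal's transcription factors, was at 0.975 to 1.64 FPKM in pse embryos and 14.4 to 17.1 FPKM in vir embryos. In all 9 of 21 genes were called higher in pse and 3 higher in vir, against 40.3% and 43.0% of all genes.

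Of 20 mesoderm and neurectoderm genes, 8 were called higher in pse and 4 higher in vir, against 40.3% and 43.0% of all genes. twi, the activator of mesoderm, was not called and averaged 137 FPKM in pse and 130.2 FPKM in vir. sna, the mesodermal repressor, stood at 41.8 to 52.4 FPKM in pse embryos and 90.6 to 125 FPKM in vir embryos. sim, a gene of the midline, averaged 6.56 FPKM in pse and 1.17 FPKM in vir. The FGF gene pyr averaged 6.58 FPKM in pse and 1.51 FPKM in vir. NetB, a guidance molecule gene, averaged 0.863 FPKM in pse and 6.16 FPKM in vir. The gene models of NetB span 1670 bp in pse and 61812 bp in vir. rho, an activator of EGF signals, averaged 16.04 FPKM in pse and 40.5 FPKM in vir. Above them, the maternal Toll and Dorsal pathway gave 3 of 10 genes called higher in pse and 4 called higher in vir. Those higher in pse were led by the ligand spz at 2.88 FPKM in pse and 0.817 FPKM in vir. The protease gd followed, which was not called in males alone. Those higher in vir were led by the receptor Tl at 16.6 FPKM in pse and 45.2 FPKM in vir. It was followed by tub at 2.45 FPKM in pse and 7.45 FPKM in vir. In the terminal system, where the kinase cascade of the embryo's ends works, no gene of 7 reached 2-fold, with 3 called higher in pse and 4 higher in vir. Ras85D was higher in pse by 0.46, while the receptor tor was lower by 0.85 and the kinase phl by 0.75.

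The list of Notch pathway and proneural genes held large differences in both directions. Brd, which inhibits the ubiquitin ligase that activates Delta, stood at 487, 607, 205, 255 and 318 FPKM in pse embryos and at 44.7, 31.1, 37.2, 48.3 and 40.1 FPKM in vir embryos. Bro, which the list counted although it is not a known Notch pathway gene, stood at 62.4 to 203 FPKM in pse and 519 to 732 FPKM in vir. malpha, a gene of the Enhancer of split complex, which Notch signals switch on, averaged 33.2 FPKM in pse and 5.63 FPKM in vir, while m4 of the same complex was not called. Of all 24 genes of the list, Bro included, 13 were called higher in pse and 7 higher in vir, against 40.3% and 43.0% of all genes tested. The median log2 difference of the list was 0.72. The DNA-binding factor of the pathway, Su(H), was listed at 0 in every pse embryo and stood at 31.9 to 39.0 FPKM in vir embryos, 35.5 FPKM in mel and 41.7 FPKM in yak, and no fold is given. H, its corepressor, ranged from 2.31 to 4.43 FPKM in pse and from 14.3 to 17.9 FPKM in vir.

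**Figure D3:**
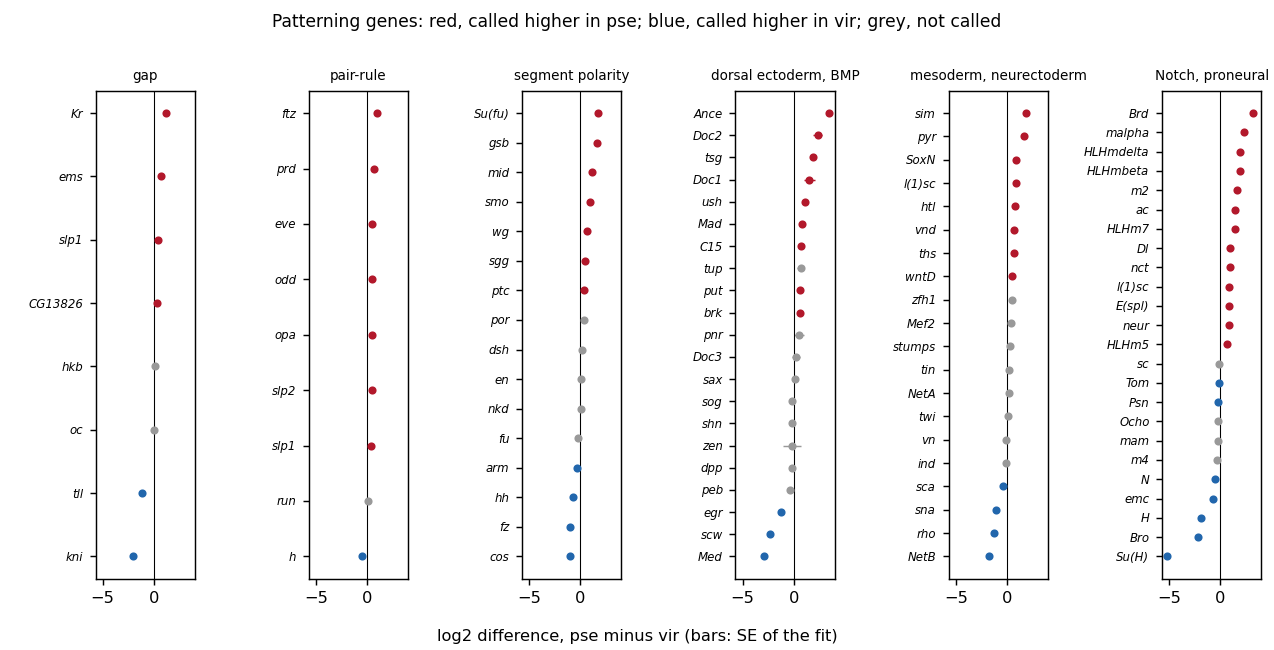
Log2 difference, pse minus vir, with its standard error, of each tested member of 6 groups of patterning genes, red where called higher in pse, blue where called higher in vir and grey where not called. Pair-rule genes lie between -0.55 and 0.94, while dorsal genes run from -2.86 at Med to 3.43 at Ance and Notch genes reach 3.17 at Brd; the lowest point, Su(H), is listed at 0 in pse, so that its value depends on the pseudocount.

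Markers of age within the stage also differed, and not all in the same direction. The 4 listed genes that are high at the start of cellularization (nullo, bnk, slam and sisA) summed to 106 to 200.5 FPKM in pse embryos and 257 to 379.5 FPKM in vir embryos. Of the 3 that were tested, slam stood at 25.1 to 78.4 FPKM in pse embryos and 172 to 263 FPKM in vir embryos. slam positions the growing membrane, and its gene models span 15802 bp in pse and 3821 bp in vir. bnk stood at 16.4 to 30.6 FPKM in pse and 33.5 to 55.6 FPKM in vir. sisA was higher in pse by 0.89, though not called in males alone. The 8 listed genes that rise toward gastrulation, among them sim, gsb and mid, summed to 61.8 to 131 FPKM in pse and 39.2 to 89.45 FPKM in vir, which overlap. Of these 8, 4 were called higher in pse, against 40.3% of all genes, and hh was lower by 0.76. The call of hh was lost without pse female 1. Later tissue markers (Act57B, elav and n-syb) summed to 34.7 to 66.8 FPKM in pse embryos and 69.75 to 97.7 FPKM in vir embryos. Most of the sum was elav, at 46.4 FPKM in pse and 80.9 FPKM in vir. Act57B averaged 0.652 FPKM in pse and 1.72 FPKM in vir. n-syb ran the other way, at 1.27 FPKM in pse and 0.122 FPKM in vir. The part that a difference in age had in the patterning genes was not tested.

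The genes that build cell membranes around the nuclei included 9 of 16 called higher in pse and 4 higher in vir. Over all genes the shares were 40.3% and 43.0%. Ced-12, a regulator of Rac, averaged 137 FPKM in pse and 39.7 FPKM in vir, and the formin dia 46.9 FPKM in pse and 14.6 FPKM in vir. jar, which encodes myosin VI, averaged 10.9 FPKM in pse and 77.6 FPKM in vir. The gene models of jar span 6574 bp in pse and 20988 bp in vir. The common parts of the contractile ring were near equal: Rho1 averaged 573 FPKM in pse and 568 FPKM in vir, and zip, the myosin heavy chain, 127 FPKM in pse and 125 FPKM in vir, and neither was called. Among 14 gastrulation and actin regulators 5 were called higher in pse, led by the kinase Abl and the G protein cta, and 3 higher in vir, led by trn at 55.2 FPKM in pse and 169 FPKM in vir and by the kinase rok. Among 12 polarity and adhesion genes 4 were called higher in pse and 6 higher in vir. The adhesion genes Nrt and Nrg were higher by 2.20 and 2.05, and the polarity genes baz and sdt were lower by 1.42 and 0.72.

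Among germ line genes that the mother supplies, aub, the Piwi-family protein of germ cells, had the largest difference and stood at 337, 284, 290, 334 and 262 FPKM in pse embryos and at 9.51, 9.97, 9.23, 8.57 and 9.69 FPKM in vir embryos (2L, 10997818 to 11001489; log2 difference 4.87 ± 0.090). Its eggs differed the same way, at 116 FPKM in pse and 10.7 and 11.3 FPKM in vir. piwi averaged 106 FPKM in pse and 21.8 FPKM in vir. Of 12 genes of the piRNA pathway, which silences transposons in germ cells, 8 (66.7%) were called higher in pse and 2 higher in vir, against 40.3% and 43.0% of all genes, with a median of 1.03. The exceptions were vret, listed under its identifier, at 2.59 FPKM in pse and 16.3 FPKM in vir, and tej, listed as CG8589, at 0.119 FPKM in pse and 2.20 FPKM in vir.

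The wider germ plasm and translation control list, which shares aub, tud, spn-E and tej with the piRNA list, had 11 of 23 genes called higher in pse and 7 higher in vir, a share in pse (47.8%) not far from that of all genes. exu, needed to carry bicoid RNA to the front of the egg, stood at 62.2 to 92.2 FPKM in pse embryos and 4.11 to 5.35 FPKM in vir embryos, with eggs at 486 FPKM in pse and 75.3 and 93.8 FPKM in vir. The gene models of exu span 1813 bp in pse and 4165 bp in vir. egl, an adaptor of RNA transport, was lower in pse, at 2.53 FPKM against 14.4 FPKM in vir. The pole cell genes osk and nos were not called. pgc averaged 16.03 FPKM in pse and 6.13 FPKM in vir, which was called here but not in the fit of all 4 species, and the 3 together summed to 29.8 to 45.1 FPKM in pse embryos and 12.05 to 34.7 FPKM in vir embryos.

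Of 11 genes that start the embryo after the egg is laid, 3 were called higher in pse and 6 higher in vir, against 40.3% and 43.0% of all genes. plu and gnu are 2 subunits of the kinase that releases the first divisions, and they went opposite ways. plu stood at 138, 124, 133, 134 and 122 FPKM in pse embryos and at 651, 700, 580, 705 and 538 FPKM in vir embryos, whereas gnu averaged 15.9 FPKM in pse and 3.71 FPKM in vir. wisp, a poly(A) polymerase that activates maternal RNA, averaged 2.16 FPKM in pse and 15.2 FPKM in vir, with eggs at 125 FPKM in pse and 127 and 140 FPKM in vir. twe, the meiotic Cdc25 phosphatase, averaged 3.23 FPKM in pse and 0.406 FPKM in vir. The activator of the zygotic genome zld, listed as vfl, was not called, at 77.3 FPKM in pse and 68.5 FPKM in vir.

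Of 21 cell cycle genes, 12 were called higher in pse and 4 higher in vir, against 40.3% and 43.0% of all genes. dap, an inhibitor of the cell cycle, stood at 19.3 to 23.7 FPKM in pse embryos and 0.499 to 3.44 FPKM in vir embryos. The mitotic kinase polo stood at 687 to 883 FPKM in pse and 181 to 212 FPKM in vir. Rbf, the retinoblastoma repressor, averaged 16.9 FPKM in pse and 47.9 FPKM in vir, and mei-41, a checkpoint kinase, 6.18 FPKM in pse and 11.1 FPKM in vir, a call that was lost in females alone (log2 difference -0.35). The genes that start DNA replication split, with 5 of 13 higher in pse and 6 higher in vir. Orc5 averaged 76.8 FPKM in pse and 15.1 FPKM in vir and Psf3 29.2 FPKM in pse and 6.75 FPKM in vir, while Orc1 stood at 1.19 to 3.82 FPKM in pse and 25.4 to 32.0 FPKM in vir and Cdc6 averaged 36.9 FPKM in pse and 88.4 FPKM in vir.

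Spindle genes held one of the widest single gaps. alphaTub67C, the maternal alpha-tubulin of mel, stood at 6.93, 6.97, 3.60, 4.89 and 3.25 FPKM in pse embryos and at 216, 253, 259, 222 and 224 FPKM in vir embryos, with eggs at 128 FPKM in pse and 244 and 207 FPKM in vir. The general tubulin alphaTub84B averaged 4834 FPKM in pse and 3531 FPKM in vir. betaTub97EF had the largest difference toward pse in this list, at 124 FPKM in pse and 23.4 FPKM in vir, followed by the kinesin neb at 62.9 FPKM in pse and 23.2 FPKM in vir, and the depolymerase Klp10A was lower, at 7.36 FPKM in pse and 32.4 FPKM in vir. In all, 8 of 23 genes were called higher in pse and 10 higher in vir, against 40.3% and 43.0% of all genes.

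Chromatin genes showed a swap between 2 copies of histone H3.3. His3.3B stood at 2559 to 3132 FPKM in pse embryos and 884 to 1046 FPKM in vir embryos, and His3.3A at 312 to 464 FPKM in pse embryos and 1316 to 1696 FPKM in vir embryos. The 2 copies encode the same protein, and how reads were divided between them limits both values. Polycomb group genes, which keep homeotic genes silent, were called higher in pse for 9 of 14 and higher in vir for 2. Over all genes the shares were 40.3% and 43.0%. Sfmbt averaged 185 FPKM in pse and 60.4 FPKM in vir and phol 14.1 FPKM in pse and 6.18 FPKM in vir, against jing at 17.1 FPKM in pse and 51.8 FPKM in vir and Sce at 33.8 FPKM in pse and 49.6 FPKM in vir.

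Chaperones did not move together. The endoplasmic reticulum chaperone Gp93 stood at 461 to 545 FPKM in pse embryos and 48.3 to 57.7 FPKM in vir embryos, and Hsp67Ba averaged 11.3 FPKM in pse and 0.849 FPKM in vir. Hsc70-4, the main constitutive chaperone, stood at 3013 to 3724 FPKM in pse and 929 to 1182 FPKM in vir. Beside Hsp23, the nucleotide exchange factor gene Hsc70Cb was lower in pse, at 12.9 FPKM against 71.3 FPKM in vir. Of 16 genes, 6 were called higher in pse and 7 higher in vir, against 40.3% and 43.0% of all genes. The heat shock factor gene Hsf was lower in pse, at 80.9 FPKM in pse and 106 FPKM in vir.

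Enzyme genes of one pathway were found on both sides. Of 8 glycolytic genes, 2 were called higher in pse and 3 higher in vir, and Ald, Pgk and Pfk were not called. Gapdh2 averaged 1055 FPKM in pse and 360 FPKM in vir, Pgi 67.2 FPKM in pse and 255 FPKM in vir, and ImpL3, the lactate dehydrogenase, 0.0391 FPKM in pse and 3.32 FPKM in vir. In purine synthesis ras, which encodes IMP dehydrogenase, averaged 41.6 FPKM in pse and 3.92 FPKM in vir, whereas bur, the GMP synthetase, averaged 10.8 FPKM in pse and 64.5 FPKM in vir. Detoxification genes had 12 of 22 called higher in pse and 8 higher in vir, against 40.3% and 43.0% of all genes. The transferase GstE7 stood at 0.269 to 2.37 FPKM in pse embryos and 62.8 to 84.8 FPKM in vir embryos and Cyp6d2 at 0.0716 to 0.616 FPKM in pse embryos and 22.8 to 31.9 FPKM in vir embryos, while Cyp4e2 averaged 5.74 FPKM in pse and 0.0211 FPKM in vir, and Cyp6a23 averaged 11.6 FPKM in pse and was listed at 0 in vir.

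Ribosomal protein genes moved in both directions. Of 56 cytoplasmic ribosomal protein genes 27 were called higher in pse, 14 higher in vir and 15 in neither direction, with a median of 0.16. Over all genes the shares were 40.3% higher in pse and 43.0% higher in vir. At least 2-fold apart were 9 of the 56, against 47.9% of all genes. Apart from RpS5b, RpLP0-like averaged 142 FPKM in pse and 26.7 FPKM in vir. It is a relative of the ribosomal protein gene RpLP0 that the list counted, not a ribosomal protein gene itself. RpL37A averaged 315 FPKM in pse and 1587 FPKM in vir on gene models of 2426 bp in pse and 630 bp in vir. Of 35 mitochondrial ribosomal protein genes 15 were called higher in pse and 11 higher in vir, and 19 at least 2-fold apart. mRpS30 averaged 98.5 FPKM in pse and 18.1 FPKM in vir and mRpL30 55.3 FPKM in pse and 13.8 FPKM in vir, while mRpS25 stood at 4.06 to 13.19 FPKM in pse and 122 to 188 FPKM in vir. mRpL35 averaged 1.18 ± 2.44 FPKM in pse, where 1 of the 5 embryos held 5.53 FPKM and the rest under 1 FPKM, and 52.5 ± 13.5 FPKM in vir.

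Of 38 translation factor and tRNA synthetase genes, 12 were called higher in pse and 20 higher in vir, against 40.3% and 43.0% of all genes. eIF2B-delta averaged 62.2 FPKM in pse and 10.2 FPKM in vir and Aats-ser 16.1 FPKM in pse and 2.63 FPKM in vir, against Aats-lys, the lysine enzyme, at 24.6 FPKM in pse and 133 FPKM in vir and Aats-pro at 5.72 FPKM in pse and 30.02 FPKM in vir. Of 15 proteasome genes, 9 were called higher in pse and 3 higher in vir. Prosalpha5 averaged 461 FPKM in pse and 63.7 FPKM in vir and Pros28.1 326 FPKM in pse and 66.7 FPKM in vir, and Rpt3, an ATPase of the base, was lower at 22.7 FPKM in pse and 140.3 FPKM in vir. Of 11 immune genes 6 were called higher in pse and 3 higher in vir. PGRP-SA, a sensor of bacterial cell wall, stood at 7.09 to 15.5 FPKM in pse embryos and was listed at 0 in every vir embryo, GNBP1 averaged 9.13 FPKM in pse and 0.640 FPKM in vir, and Dredd, a caspase of the pathway, averaged 10.1 FPKM in pse and 38.2 FPKM in vir.

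**Figure D4:**
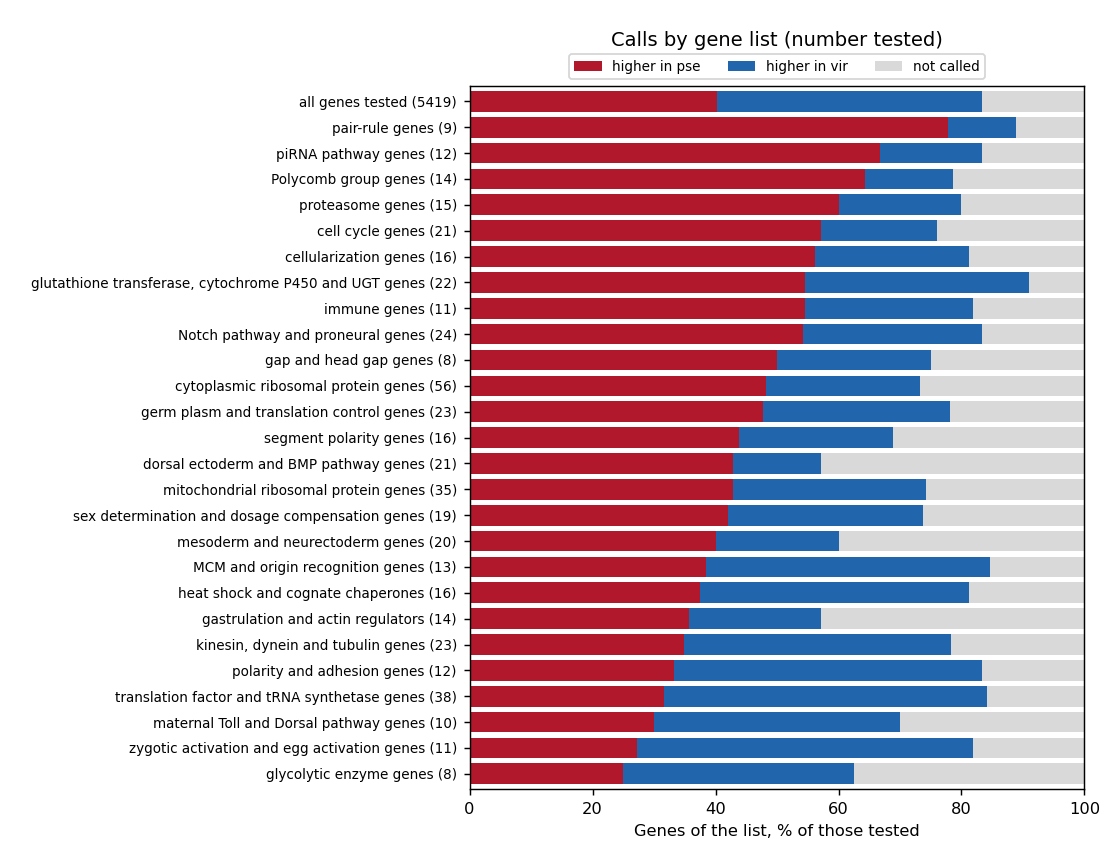
Share of the tested genes of each list with at least 8 tested members that was called higher in pse (red), higher in vir (blue) or not called (grey), with all 5419 genes in the top row. Pair-rule genes had 77.8% called higher in pse and piRNA pathway genes 66.7%, against 40.3% of all genes; several lists share members.

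Eggs were set beside the embryos as a description, with 1 pse egg and 2 vir eggs and no test. Over 5419 genes the egg difference and the embryo difference had a Spearman correlation of 0.34, and genes are not independent replicates. Of the 1196 genes at least 2-fold higher in pse embryos, 486 (40.6%) were also at least 2-fold higher in the pse egg, 646 (54.0%) were within 2-fold in eggs and 64 (5.4%) were at least 2-fold higher in vir eggs. Of the 1401 genes at least 2-fold higher in vir embryos, 371 (26.5%) were at least 2-fold higher in vir eggs, 850 (60.7%) within 2-fold and 180 (12.8%) at least 2-fold higher in the pse egg. Over all genes tested, 22.6% were at least 2-fold higher in the pse egg and 14.4% in vir eggs.

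The authors deposited a class of origin for each gene and species, maternal or zygotic, from a classifier trained on mel. Genes classed with high confidence as maternal in both species numbered 1809, of which 350 (19.3%) were at least 2-fold higher in pse and 480 (26.5%) at least 2-fold higher in vir. For the 490 genes classed as zygotic in both, the counts were 114 (23.3%) and 145 (29.6%). The median absolute difference was 1.05 for zygotic and 0.90 for maternal genes. Over all genes tested the shares were 22.1% and 25.9% and the median was 0.96, so that both classes lay near the whole. The class rests on the same libraries, so the genes that changed class are described without a test. Of 37 genes classed as maternal in pse and zygotic in vir, CG32801 stood at 79.2 to 114 FPKM in pse embryos and 0 to 0.782 FPKM in vir embryos, CG7196 at 34.2 to 43.0 FPKM in pse and 0 to 0.170 FPKM in vir, and CG4267 at 22.4 to 60.2 FPKM in pse and 0 to 0.132 FPKM in vir. Their vir eggs were all at 0, and their pse egg stood at 62.3, 37.6 and 40.8 FPKM. Of 27 genes classed the other way, CG12947 was described above, salt stood at 0.383 to 0.735 FPKM in pse embryos and 79.6 to 88.6 FPKM in vir embryos, and CG6231 averaged 1.46 FPKM in pse and 37.2 FPKM in vir.

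The levels of the other 2 species, mel and yak, were set beside these differences, again as a description. In the paper, mel embryos correlated most with yak, then with pse and least with vir. The 2 are therefore neither independent of each other nor equally distant from pse and vir. Of the 1196 genes at least 2-fold higher in pse, the mel and yak embryo means were both nearer the pse mean for 455 (38.0%) and both nearer the vir mean for 432 (36.1%), with 309 split. Of the 1401 genes at least 2-fold higher in vir, both were nearer the pse mean for 665 (47.5%) and both nearer the vir mean for 408 (29.1%), with 328 split.

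Gene models were compared as a limit on these values. For 4636 genes (85.6%) the spans of the pse and vir models were within 2-fold, and of these 21.6% were at least 2-fold higher in pse and 25.0% at least 2-fold higher in vir. Of the 783 genes with spans further apart, 24.8% were at least 2-fold higher in pse and 30.8% in vir. Past 16-fold, 34 of 139 genes (24.5%) had spans over 2-fold apart, compared with 14.4% of all genes. The part of the models in the differences was not tested.

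The 2 species differ in their sex chromosomes. Müller element A, the X of mel, is the X in both, and Müller D, an autosome in vir, is fused to the X in pse, where males have 1 copy. In older Drosophila embryos the MSL complex raises the X genes of males. Each embryo was given a Müller D score: the median over 1011 Müller D genes of its log2 difference from the mean of the vir embryos of its sex, less the corresponding median of the genes on Müller B, C and E. Scores of vir embryos are centred on their own mean. The score was -0.30, -0.32 and -0.31 in the 3 pse males, against 0.00 in both vir males, a difference of -0.31. In females it was 0.05 and 0.07 in pse, against -0.01 to 0.00 in vir, a difference of 0.07. In males and in females alike the two-sided exact permutation p was 0.1, and 10 relabelings of 5 embryos cannot give less. The difference between the sexes, 0.37, gave an exact permutation p of 0.01 over 100 relabelings of sex within species, the smallest they can give, but leaving out each embryo in turn gave p of 0.0167 to 0.125, at or above 0.05 for 6 of the 10, with differences of 0.354 to 0.385. Müller A genes, 907 in number, had scores of 0.13 and 0.10 in pse females and 0.19, 0.18 and 0.12 in pse males, against -0.03 to 0.03 in vir embryos. The difference of 0.14, on the X of both species, gave an exact permutation p of 0.01 over 100 relabelings of species within sex. It fell to 0.038 with no filter on low values, where the exact permutation p was 0.12.

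Single genes whose species difference depended on sex were few. The interaction of species and sex passed an adjusted p under 0.05 in limma for 20 genes (0.369%) where pse was relatively higher in females and for 16 genes (0.295%) where pse was relatively higher in males. Of the first, 15 lay on Müller D, 4 on Müller A and 1 on Müller C, and of the second 12 lay on Müller A and 4 on Müller D. Both counts shrank when any 1 embryo was left out, to between 0 and 7 for the first and between 1 and 11 for the second. CG12004 on Müller D showed a common pattern, with 154 and 138 FPKM in pse females and 58.8, 58.9 and 65.0 FPKM in pse males, against 109, 127 and 105 FPKM in vir females and 134 and 116 FPKM in vir males. The protease homolog mas stood at 10.3 and 7.24 FPKM in pse females and 2.80 to 3.46 FPKM in pse males, against 18.2 to 23.0 FPKM in vir embryos, and lost its call without any 1 of 9 of the 10 embryos. CG12004 lost its call without pse female 1, without vir male 2 and with the removed libraries.

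The largest sex differences ran toward pse males. CG32351 and CG6372, now S-Lap2 and S-Lap1, encode leucyl aminopeptidases that are sperm proteins in mel. They are neighbours of one gene family, so that reads may have been shared. CG32351 stood at 0.148 and 0 FPKM in pse females and 14.2, 6.94 and 14.5 FPKM in pse males, and at most 0.268 FPKM in any vir embryo. CG6372 stood at 0 and 0.0507 FPKM in pse females and 12.7, 6.15 and 8.98 FPKM in pse males, and at most 0.0977 FPKM in vir embryos. Both were listed at or near 0 in pse and vir eggs, and both lost their call without pse female 1. CG42569, now Larp7, on Müller A stood at 23.6 and 24.7 FPKM in pse females and 64.8, 78.5 and 68.7 FPKM in pse males, against 24.5 to 26.6 FPKM in vir females and 13.98 and 16.3 FPKM in vir males. The 1 gene off Müller A and D, FBgn0034592 on Müller C, stood at 7.41 and 4.87 FPKM in pse females and was listed at 0 in all 3 pse males, against 3.12 to 7.33 FPKM in vir embryos. Its call was lost without any 1 of 7 of the 10 embryos, and with the removed libraries the difference between sexes was 1.62 (adjusted p = 0.62 in limma).

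**Figure D5:**
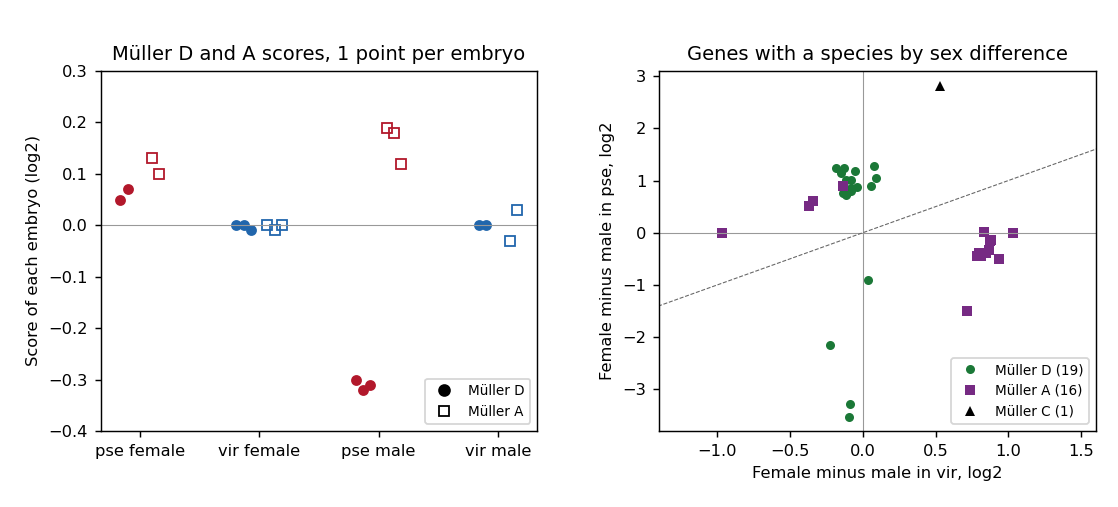
Left, the Müller D score (filled circles) and Müller A score (open squares) of each embryo on the log2 scale, pse in red and vir in blue. Right, the female minus male difference in pse (vertical) and vir (horizontal), as log2(FPKM + 1), of the 36 genes with a species by sex difference. The 3 pse males lie at -0.32 to -0.30 for Müller D, below all other embryos.

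Genes of sex determination and dosage compensation included 8 of 19 called higher in pse and 6 higher in vir. Over all genes the shares were 40.3% and 43.0%. Sxl, the master gene of female development, was not called between species and followed the labelled sex in both, at 431 and 358 FPKM in pse females and 51.4 to 67.7 FPKM in pse males, against 379 to 453 FPKM in vir females and 54.3 and 73.9 FPKM in vir males. mof, the acetyltransferase of the MSL complex, stood at 27.2 and 25.1 FPKM in pse females and 72.3, 48.9 and 61.0 FPKM in pse males, against 3.97, 3.27 and 4.26 FPKM in vir females and 9.15 and 10.1 FPKM in vir males. Other members of the complex were lower in pse, msl-3 at 22.1 FPKM in pse and 61.6 FPKM in vir, msl-2 by 0.52 and mle by 0.45 on the log2 scale, and msl-1 was not called. tra2, a splicing factor of the female pathway, averaged 8.30 FPKM in pse and 26.8 FPKM in vir, and the JAK-STAT ligand gene upd2 1.61 FPKM in pse and 0.0766 FPKM in vir.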

How the data were processed

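The authors trimmed reads to a mean quality above 30, mapped them to transcripts of each species with Bowtie2, estimated levels with eXpress, summed them per gene and scaled libraries by the 75th percentile over autosomal genes. The deposited tables hold log10 of normalized FPKM plus 1, and the builds of pse and vir are not given in the sources used here. Chromosome positions, gene spans and the classes of origin are other deposited columns, by the authors. The 16 columns of group means in each table were not used. Each value was converted to FPKM, and log2(FPKM + 1) was analysed. limma 3.58.1 in R 4.3.3, with a trend, tested species with sex as covariate, two-sided, with Benjamini-Hochberg adjustment and a threshold of 0.05. Counts were not used here, so depth and counting intervals are unknown. Müller scores were compared by exact permutation of embryos, two-sided, recomputing the score each time.

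The members, lists, tests and named genes were chosen with earlier results of these data known. Named genes followed a rule: the 8 with a symbol and 3 without in each direction with the largest separated difference and at least 10 FPKM, up to 2 called genes per direction of each list, the 4 per direction with at least 10 FPKM in both species, the 3 per direction with a species by sex difference and the 3 per direction that changed class. Other list members were named after their values were seen. Of 549 names in the lists, 185 matched no gene of the table, and 5671 of 5993 gene identifiers matched current names. The replicate numbers were not taken to pair the embryos. Replicates are separate embryos of 1 strain, so p-values measure the spread between embryos. The code was tested on simulated data. Alternatives were other normalizations, pseudocounts, filters, fits and embryos left out.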

Additional observations from a re-analysis of the deposited data

Results flagged for a closer look

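The species difference itself differed between the sexes, by limma's test of the interaction, in 6 genes named by rule, given as the difference in females minus that in males on the log2(FPKM + 1) scale. It was 2.28 for FBgn0034592 (adjusted p = 0.0264), 1.42 for mas (adjusted p = 0.0316) and 1.38 for CG12004 (adjusted p = 0.00935). It was -3.43 for CG32351 (adjusted p = 0.00600), -3.18 for CG6372 (adjusted p = 0.00460) and -2.22 for CG42569 (adjusted p = 0.000636). All but that of CG42569 were lost without at least 1 single embryo. With 1 embryo left out at a time, the call was lost in 7 of 10 fits for FBgn0034592, 9 for mas, 2 for CG12004, 1 each for CG32351 and CG6372 (without pse female 1, adjusted p = 0.052 in both) and 0 for CG42569. With the removed libraries the adjusted p was 0.62 for FBgn0034592, 0.21 for mas and 0.18 for CG12004, and with a pseudocount of 10 FPKM the value for FBgn0034592 was 0.47 (adjusted p = 0.12). In each of the 6, all 3 pse males lay on one side of both pse females. The Müller D score also differed between the sexes, by 0.37 (exact permutation p = 0.01 over 100 relabelings). No group of species and sex held 4 or more embryos, so that no embryo was tested as standing apart within its group.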

How the results depend on the processing

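Counts of genes called higher in pse or in vir stayed within 1.5 times under all alternatives run. Leaving out 1 embryo gave 2123 to 2168 and 2264 to 2319 genes, and at least 2-fold 1189 to 1206 and 1381 to 1414. A pseudocount of 10 FPKM lowered the 2-fold counts to 648 in pse and 654 in vir. The 20 genes with pse relatively higher in females became 11 with 95th-percentile, 32 with TMM and 5 with quantile normalization, 33 with a pseudocount of 10 FPKM, 1 with the removed libraries, 40 in the fit of 22 embryos of 4 species, 5 without trend and 0 to 7 without 1 embryo. The 16 with pse relatively higher in males became 4 with the removed libraries, 27 in the fit of 4 species, 8 without trend and 1 to 11 without 1 embryo. The cause of these changes was not tested. The Müller D difference between sexes was 0.315 (exact permutation p = 0.06) with quantile normalization, 0.392 (exact permutation p = 0.08) with a filter of 10 FPKM and 0.354 to 0.385 without 1 embryo. The Müller A difference was 0.038 (exact permutation p = 0.12) with no filter and 0.124 to 0.155 without 1 embryo. In females alone CG12004 reversed to 0.36 and CG42569 to -0.07. Of 160 named genes 145 changed no call or direction in any alternative run, between species or between sexes, and 15 did.

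The deviations of embryos with the same replicate number correlated at -0.118 to 0.092 across species (8 pairs) and at 0.048 to 0.479 between the sexes of 1 species (4 pairs). Not every pair passed 0.1 and the labels name nothing that a number shares, so the numbers were not taken to pair the embryos, although the positive values within species bear on the species by sex counts. With the replicate number as a block, 2147 and 2305 genes were called higher in pse and in vir, and 7 and 5 genes had a species by sex difference.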

Other observations

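Some genes differed in opposite directions in eggs and embryos, as a description of 1 pse egg and 2 vir eggs. Adh, alcohol dehydrogenase, stood at 2.13 to 5.63 FPKM in pse embryos and 128 to 192 FPKM in vir embryos, while the pse egg held 179 FPKM and the vir eggs 2.32 and 2.76 FPKM. rpr, an activator of programmed cell death, stood at 6.02 to 14.1 FPKM in pse embryos and 20.4 to 62.9 FPKM in vir embryos. The pse egg held 40.1 FPKM of it and both vir eggs were listed at 0. The gene models of rpr span 1226 bp in pse and 213 bp in vir. Nmnat, which makes the cofactor NAD, stood at 5.29 to 6.69 FPKM in pse embryos and 32.85 to 36.2 FPKM in vir embryos, with 34.0 FPKM in the pse egg and 1.19 and 0.670 FPKM in vir eggs. In the other direction, l(3)neo38 was at 0.817 FPKM in the pse egg and 25.55 and 28.04 FPKM in vir eggs, against its higher level in pse embryos given above. DnaJ-H, a chaperone gene, stood at 11.5 to 16.3 FPKM in pse embryos and 0.525 to 1.149 FPKM in vir embryos, with 0.0780 FPKM in the pse egg and 30.3 and 31.1 FPKM in vir eggs.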
